A study of Mus musculus with 3 samples.

Results

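The genes described here make cholesterol and fatty acids. They were taken from a list of 35 named genes out of the 32285 features counted, and all 35 were found in the files. The list holds 19 enzymes of the sterol branch (8 of the mevalonate steps and 11 that lead from farnesyl units through squalene to cholesterol), 5 regulators and carriers of sterol, 10 enzymes of fatty acid synthesis, and Thrsp, a small protein known for its link to fat synthesis in liver, fat and mammary tissue. Their RNA was measured in retinal horizontal cells, the interneurons that connect neighbouring photoreceptors in the outer retina. The data are 3 droplet-based single-cell RNA libraries of mice of the genotype Cx57icre;Ai14, taken 6, 8 and 11 days after birth (P6, P8 and P11), 1 library for each age. In these mice a Cre recombinase driven from the connexin gene Cx57, active in horizontal cells, switches on the red fluorescent Ai14 reporter, and the red cells were sorted after papain digestion of the retina. All 3 libraries carry both alleles, and neither the number of animals behind a library nor their sex is given in the sources used here. No test between ages can be made from single libraries, and age and library cannot be told apart. Intervals in the text are 95% intervals for counting error only.

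Counts are of unique molecular identifiers (UMIs), each of which marks 1 captured transcript near its 3′ end. They were not scaled to gene length, so levels are compared between libraries for a gene and not between genes. Cells with at least 1000 detected genes, at most 10% mitochondrial UMIs and a UMI of at least 2 of the 3 horizontal cell transcription factors Lhx1, Onecut1 and Onecut2 were summed in each library. Values given in threes are in the order P6, P8, P11. There were 7145, 3153 and 4757 such cells, 94.4%, 96.1% and 96.2% of the cells that passed the first pair of limits. Their summed depth was 82305608, 62520239 and 103160766 UMIs, and levels are given as counts per 1000000 of these UMIs (CPM). The median cell held 12161, 20671 and 22106 UMIs, so P6 cells were the shallowest. All 9 horizontal cell markers were present in each library. Summed rod markers were between 6.84 and 7.93 CPM, and those of cones, endothelial cells, astrocytes, pigment epithelium, erythroid and cycling cells were at 1.28 CPM or less in each library. The amacrine list came to 7081, 9563 and 4719 CPM, of which all but 324, 277 and 254 was Npy, and the ganglion cell list to 2032, 2282 and 1382 CPM, most of it Nefl; their part in the results was not tested. The libraries shared between 8 and 15 barcodes per pair, of which 4 to 8 were horizontal cells in both.

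Cholesterol is built from acetyl-CoA through mevalonate, isoprenoid diphosphates and squalene. Fatty acids are built from the same acetyl-CoA, which is first carboxylated and then extended by fatty acid synthase, and the products are desaturated and elongated. Both branches are known targets of the SREBP transcription factors, which the genes Srebf1 and Srebf2 encode. When sterol is scarce, the escort protein Scap carries SREBPs from the endoplasmic reticulum to the Golgi for cleavage, and Insig1 holds them back when sterol is plentiful. SREBPs bind a sterol regulatory element and are known to act together with the factor NF-Y, which binds CCAAT boxes, and with Sp1, which binds GC boxes.

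Promoters of 4 enzymes are shown because each carries CCAAT boxes. Of the 4, only Hmgcs1 also carries the sterol regulatory element searched for here. RefSeq sequence of the build GRCm38.p6 was matched for 28 of the 35 genes, as 300-base windows from 250 bases before to 50 bases after a start of transcription. Some genes had several windows. The entries not matched were Fdps, Fdft1, Sqle, Stard4, Scd1, Scd2 and Fads1. The stretches below are written 5′ to 3′ on the strand of the gene, and capitals mark CCAAT boxes in either orientation (CCAAT or its complement ATTGG) and the sterol regulatory element TCACNCCAC. None overlaps an annotated exon. Hmgcs1 lies on the plus strand and is shown at chr13:119690161-119690320, Mvk on the plus strand at chr5:114444079-114444268, Ebp on the minus strand at chrX:8193543-8193697 and Fasn on the minus strand at chr11:120824548-120824657.
Hmgcs1: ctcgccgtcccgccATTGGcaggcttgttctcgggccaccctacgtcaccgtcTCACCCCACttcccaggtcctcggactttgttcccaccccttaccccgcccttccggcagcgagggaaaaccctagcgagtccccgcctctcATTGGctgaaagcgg
Mvk: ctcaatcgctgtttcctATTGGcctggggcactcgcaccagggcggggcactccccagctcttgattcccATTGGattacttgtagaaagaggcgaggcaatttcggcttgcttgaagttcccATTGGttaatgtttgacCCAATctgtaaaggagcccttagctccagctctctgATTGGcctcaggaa
Ebp: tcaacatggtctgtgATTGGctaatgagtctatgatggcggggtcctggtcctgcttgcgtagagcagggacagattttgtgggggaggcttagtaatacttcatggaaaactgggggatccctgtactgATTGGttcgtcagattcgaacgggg
Fasn: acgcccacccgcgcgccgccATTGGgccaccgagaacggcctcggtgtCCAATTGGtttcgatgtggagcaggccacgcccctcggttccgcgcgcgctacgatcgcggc

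The Hmgcs1 stretch held the sterol element between 2 CCAAT boxes. The Mvk stretch held 5 CCAAT boxes, of which 4 lay on the minus strand, each 53 bases from the next. Fasn held 3, of which 2 shared bases. A gene was counted when any of its windows held the motif. Searched on both strands, CCAAT was found in 23 of the 28 genes (82.1%) and in 41.1% of 27025 genes with a window. It was present in 15 of 16 sterol enzymes (93.8%), with Acat2 the exception. Dhcr7 was counted only through its window at chr7:143829964-143830263. Among fatty acid enzymes CCAAT was in 4 of 7 (57.1%), with none in the windows of Acaca, Elovl6 and Fads2. The Acaca window, chr11:84195188-84195487, lies inside the annotated gene. The GC box GGGCGG was in 21 of 28 genes (75%), in 14 of 16 sterol enzymes (87.5%), in 3 of 7 fatty acid enzymes (42.9%) and in 38.2% of all genes. The sterol element TCACNCCAC was in 1 of 28 genes, Hmgcs1, and in 1.44% of all genes. The Thrsp window held CCAAT and no GGGCGG. These are matches of letters in a short window, and none was tested for binding.

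The summed levels of the sterol and fatty acid branches took different courses over the 3 libraries. Summed over its 19 enzymes, the sterol branch came to 648, 628 and 660.2 CPM. The 10 fatty acid enzymes summed to 986, 593 and 747 CPM. The sterol sum thus lay within a narrow band, while the fatty acid sum was highest at P6 and lowest at P8. Part of this band came from Pmvk, which was highest at P8. Without Pmvk the other 18 sterol enzymes summed to 546, 512 and 579 CPM. Their ratio was then 0.937 from P6 to P8 and 1.13 from P8 to P11. The P8 to P6 ratio was 0.97 (0.957 to 0.982) for the sterol sum and 0.602 (0.594 to 0.609) for the fatty acid sum. From P8 to P11 the ratios were 1.05 and 1.26. Within a library, where scaling plays no part, fatty acid enzymes gave 1.52 UMIs for each sterol enzyme UMI in the P6 library, 0.945 in P8 and 1.13 in P11. The direction of the sterol sum was not stable. Its P8 to P6 ratio was 1.17 under edgeR's trimmed mean scaling (TMM) and 1.07 under median-of-ratios scaling. Its P11 to P8 ratio was 0.995 and 0.998. Of the sterol enzymes, 11 of 19 (57.9%) had their lowest level at P8, beside 8 of 10 fatty acid enzymes (80%). The share was 44.9% for all features that reached 20 CPM at some age. Under TMM scaling these were 6 of 19, 6 of 10 and 29.3%.

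**Figure D1:**
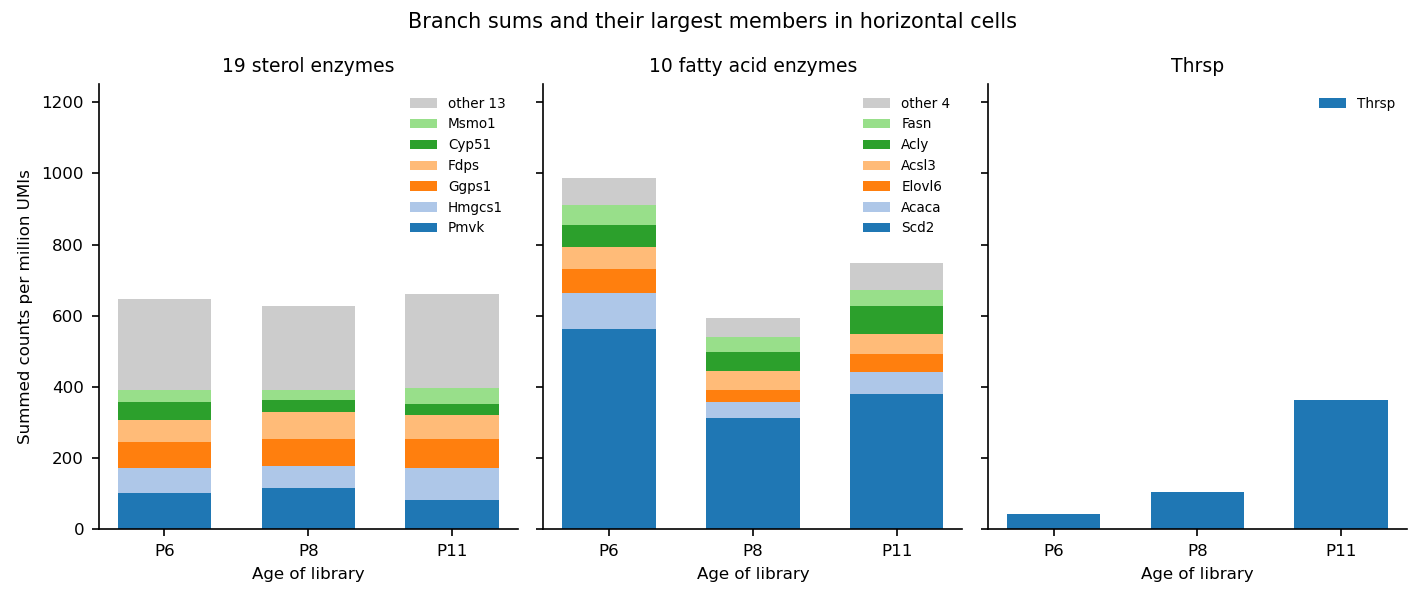
Summed counts per 1000000 UMIs of the 19 sterol enzymes, the 10 fatty acid enzymes and Thrsp in horizontal cells of the P6, P8 and P11 libraries, with the 6 largest members of each branch as coloured blocks and the rest in grey. The sterol bars stand between 628 and 660.2 CPM, the fatty acid bar is lowest at P8 with 593 CPM, and Scd2 is its largest block at each age.

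Scd2, a stearoyl-CoA desaturase that makes monounsaturated fatty acids, gave 57%, 52.5% and 50.9% of the fatty acid UMIs. Without Scd2 the other 9 enzymes summed to 424, 282 and 367 CPM, and the P8 to P6 ratio was 0.664. Without Scd2 and Acaca the remaining 8 summed to 324, 237 and 305 CPM, with a P8 to P6 ratio of 0.733 and a P11 to P6 ratio of 0.943. The low value at P8 was therefore also present outside these leading members, whereas P6 and P11 came close to each other. Other measures that were highest at P6 were the bipolar marker list (127, 51.0 and 53.4 CPM, most of it Prkca) and the microglia list (11.34, 5.02 and 4.19 CPM, most of it P2ry12, with C1qa and C1qb at 0 at P8). With cells left out that held at least 2 UMIs of rod, cone, microglia, endothelial, pericyte, astrocyte, pigment epithelium, erythroid or cycling markers, the fatty acid ratio of P8 to P6 was 0.598. The part of the bipolar list was not tested. With every cell thinned to 3000 UMIs the ratio was 0.644. In cells with 10000 to 20000 UMIs it was 0.589, but the median depth within that window still differed, at 14080, 17986 and 17816 UMIs. Within P6, the fatty acid sum was 879 CPM in the shallower cells (those up to the library's median UMI count) and 1036 in the deeper cells. Their median depths were 7184.5 and 14940 UMIs, both under the 20671 of P8, where the sum was 593 CPM. The part of depth was not tested.

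A gene was counted as higher or lower when 2 libraries lay at least 1.5-fold apart and the higher one reached 20 CPM. The same 25 of the 35 genes reached that level in each comparison. From P6 to P8, 2 were higher (Thrsp and Idi1) and 5 were lower (Acat2, Srebf2, Acaca, Scd2 and Elovl6). Among all 7067 genes tested, 7.97% were higher and 21.7% lower, which puts the 25 genes near the background. From P8 to P11, 3 were higher (Thrsp, Msmo1 and Insig1) and none lower, against 10.4% and 4.55% of 6770 genes. From P6 to P11, 2 were higher (Thrsp and Idi1) and 3 lower (Acat2, Cyp51 and Acaca), against 7.35% and 12.3% of 7161 genes. In none of the comparisons did the counts stand far from the background, so they say little about these genes as a group. The median log2 ratio of the 25 genes was -0.19, 0.29 and 0.14 in these comparisons, and that of all 35 was -0.29, 0.33 and -0.01, beside -0.14, 0.07 and -0.08 for all genes tested. TMM scaling added 0.28 to each log2 ratio of P8 over P6 and 0.20 to each of P11 over P6, and took 0.08 from each of P11 over P8. Under it the counts were 4 higher and 2 lower, then 1 higher and 1 lower, then 5 higher and 0 lower. Of all 35 genes, 22 (62.9%) had their lowest level at P8, as did 44.9% of the 7218 features that reached 20 CPM at some age. Under TMM scaling these were 14 of 35 and 29.3%.

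**Figure D2:**
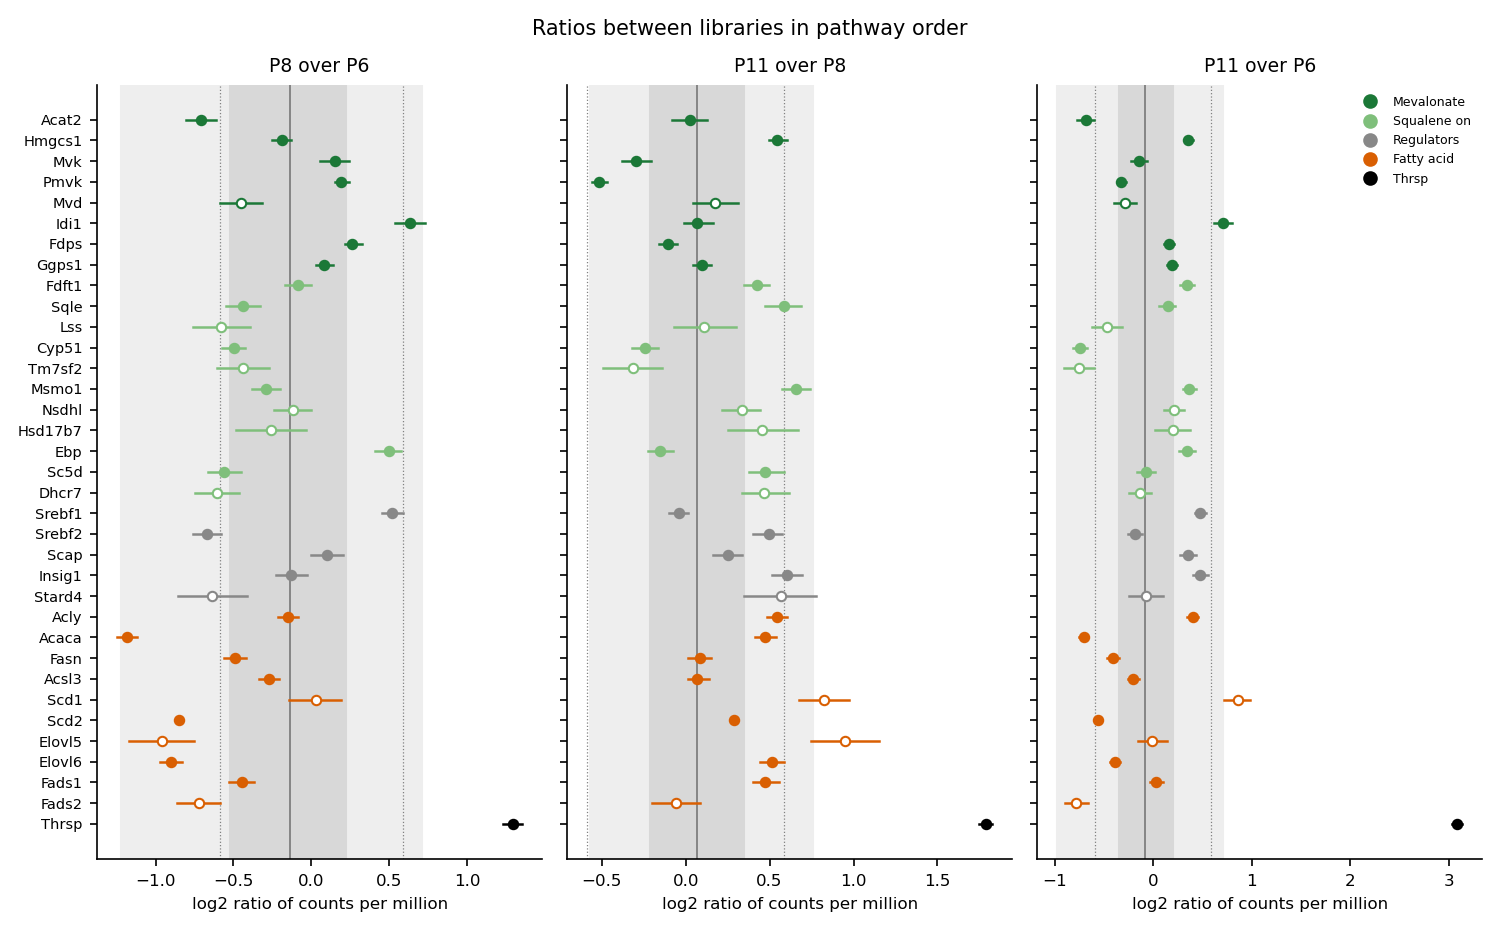
log2 ratio of CPM between libraries for the 35 genes in pathway order, with 95% counting intervals as bars and open circles for genes under 20 CPM at both ages. Dark and light grey bands hold the middle 50% and 90% of all genes tested, the solid line is their median and dotted lines mark 1.5-fold; Thrsp lies to the right of both bands in each panel.

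The mevalonate steps summed to 399, 418 and 409 CPM. Acat2, the cytosolic thiolase that joins acetyl-CoA units at the start of the branch, was at 33.1, 20.2 and 20.5 CPM. It was 1.63-fold lower at P8 than at P6 (interval 1.53 to 1.75) and did not differ beyond counting error between P8 and P11. Under TMM scaling it was 1.35-fold lower at P8 and 1.40-fold lower at P11, both under the limit. Hmgcs1, the HMG-CoA synthase that follows it, was at 71.0, 62.2 and 91.0 CPM and so was highest at P11, where its ratio to P8 was 1.46 (1.41 to 1.52).

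Mvk and Pmvk, the kinases that phosphorylate mevalonate, were both highest at P8. Mvk stood at 27, 29.9 and 24.4 CPM and Pmvk at 102, 117 and 81.5 CPM. Pmvk was 1.43-fold lower at P11 than at P8, which passed the 1.5-fold limit only under TMM and median-of-ratios scaling. The decarboxylase Mvd, at 15.3, 11.2 and 12.6 CPM, stayed under 20 CPM. Idi1, the isomerase that interconverts the isoprene units, had 18.3, 28.3 and 29.9 CPM. It passed the 20 CPM minimum through the libraries where it is high, and was the only sterol enzyme counted as higher at P8 and at P11 than at P6, with ratios of 1.55 (1.45 to 1.66) and 1.63 (1.53 to 1.74). In cells with 10000 to 20000 UMIs the second ratio was 1.38. Fdps, which makes farnesyl diphosphate, was at 61.8, 74.3 and 69.0 CPM, and Ggps1, which extends it to geranylgeranyl diphosphate, was at 70.8, 75.2 and 80.5 CPM. The libraries differed by at most 1.2-fold in both genes on this scale. Over the alternatives the ratio reached 1.46 for Fdps (P8 to P6) and 1.3 for Ggps1 (P11 to P6), still under the 1.5-fold limit.

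**Figure D3:**
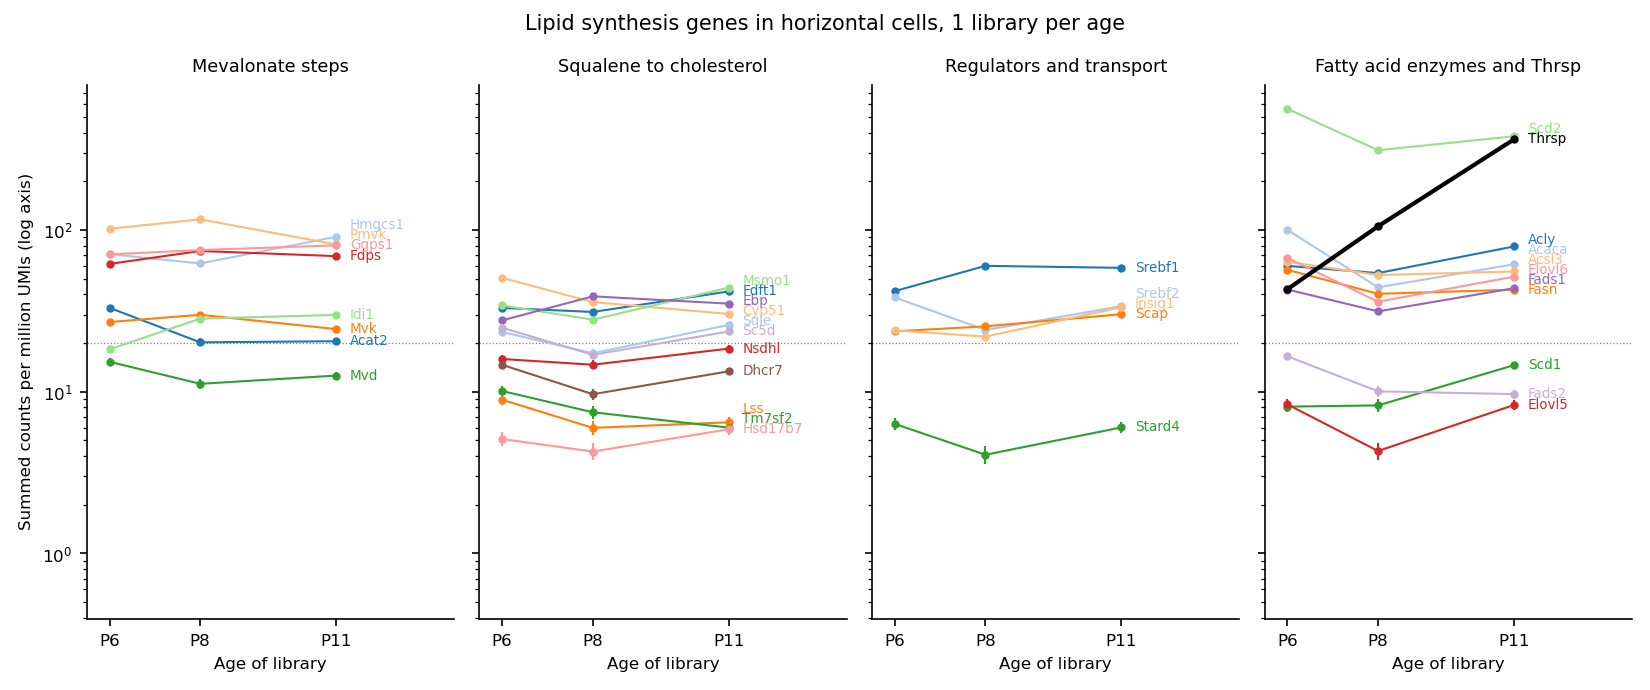
Summed counts per 1000000 UMIs (log axis) of each gene at P6, P8 and P11, in 4 panels by role, with exact Poisson 95% intervals as bars and a dotted line at 20 CPM. Thrsp (black) goes from 43.0 to 364 CPM while the fatty acid enzymes around it have, for 8 of 10 (6 of 10 under TMM scaling), their lowest value at P8. The same holds for 44.9% of all features that reached 20 CPM at some age (29.3% under TMM scaling).

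The 11 enzymes from squalene synthase to cholesterol summed to 249, 210.2 and 251 CPM, so P8 was lowest on this scale. Under TMM scaling the P8 to P6 ratio of this sum was 1.02, and P6 was then lowest. Fdft1, which makes squalene, stood at 33.0, 31.2 and 41.8 CPM. It shares 774 bases with Ctsb on the opposite strand, which was at 223, 189 and 289 CPM, and reads of that stretch cannot be told apart if strand was not used. Sqle, the squalene epoxidase and a control point of the branch, was at 23.4, 17.3 and 25.9 CPM, and its P11 to P8 ratio lay just under the 1.5-fold limit. Cyp51, the demethylase that acts on lanosterol, was at 50.7, 35.9 and 30.3 CPM. It was highest at P6 and 1.67-fold lower at P11 (1.60 to 1.75), a call that TMM scaling ended (1.46-fold). Msmo1, the next oxidase, was at 34.2, 27.9 and 44.1 CPM, with P11 at 1.58 times P8 (1.49 to 1.67), or 1.46 times in cells with 10000 to 20000 UMIs. Cyp51 and Msmo1, which act close to each other in the branch, thus differed in which library was lowest.

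Ebp, a sterol isomerase, was at 27.6, 38.9 and 35.1 CPM and was lowest at P6. Sc5d, a sterol desaturase, was at 24.9, 16.9 and 23.6 CPM and was lowest at P8. The other 5 enzymes of this stretch stayed under 20 CPM. Dhcr7, the reductase of the last step, was at 14.7, 9.66 and 13.4 CPM, and the sterol dehydrogenase Nsdhl at 16.0, 14.7 and 18.5 CPM. Lss, the lanosterol synthase, was at 8.93, 5.98 and 6.48 CPM, the reductase Tm7sf2 at 10.1, 7.47 and 6 CPM, and the ketoreductase Hsd17b7 at 5.10, 4.27 and 5.87 CPM. Tm7sf2 overlaps Vps51 on the same strand by 532 bases, so its UMIs are uncertain.

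The SREBP genes differed in which library was lowest. Srebf1, which encodes the form best known for driving fatty acid genes, was at 41.9, 60.1 and 58.4 CPM. Srebf2, whose product is best known for driving sterol genes, was at 38.3, 24.1 and 33.9 CPM. Srebf1 was thus lowest at P6, the library with the highest fatty acid sum, and Srebf2 was lowest at P8. The P8 to P6 ratio was 1.43 (1.37 to 1.5) for Srebf1 and 0.628 (0.591 to 0.668) for Srebf2. Srebf2 lost its call under both other scalings, under thinning and after centring on gene span, and Srebf1 gained one under 6 of 11 alternatives. Scap was at 23.7, 25.4 and 30.2 CPM. Insig1 was at 24.0, 21.9 and 33.4 CPM and was highest at P11, at 1.52 times P8 (1.43 to 1.62), a ratio that fell under 1.5 in 4 of 11 alternatives. Stard4, a carrier of cholesterol between membranes, was at 6.33, 4.08 and 6.02 CPM.

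All 7 fatty acid enzymes that reached 20 CPM were lower at P8 than at P6, and all 7 were higher at P11 than at P8. Of all genes tested, 60.5% were lower at P8 than at P6 and 56.7% higher at P11 than at P8. The directions held under each alternative for Acaca, Scd2, Elovl6 and Fads1. In the first comparison Acly reached 1.09 and Acsl3 1 under TMM scaling, and 1.1 and 1.01 after division by the span quintile. In the second, Acsl3 was between 0.913 and 0.999 under 4 alternatives, and Fasn was 1 under TMM scaling and 0.982 in thinned cells. The median log2 ratio of all 10 enzymes was -0.61 and then 0.47, beside -0.14 and 0.07 for all genes tested. Acly, which makes cytosolic acetyl-CoA from citrate, was at 60.1, 54.2 and 79.2 CPM and was the one of the 7 that stood well above its P6 level at P11, at 1.32-fold (1.27 to 1.37). Acaca, the carboxylase that commits acetyl-CoA to fatty acids, was at 100.3, 44.2 and 61.4 CPM. It was 2.27-fold lower at P8 than at P6 (2.17 to 2.37) and 1.63-fold lower at P11 (1.58 to 1.69). The P11 to P6 ratio of 0.613 became 0.703 under TMM scaling and 0.751 after division by the median of its span quintile, described further on, both short of a 1.5-fold difference. Fasn, the synthase itself, was at 56.8, 40.4 and 42.8 CPM, 1.41-fold lower at P8 and 1.33-fold lower at P11. The carboxylase and the synthase were thus highest at P6 in these libraries.

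Scd2 was at 562, 312 and 380.4 CPM. It was 1.80-fold lower at P8 (1.77 to 1.83), 1.49-fold under TMM scaling, and 1.48-fold lower at P11. Its paralogs Scd3 and Scd4 were at 1.09 CPM or less at each age, while Scd1 was at 8.09, 8.24 and 14.6 CPM, highest at P11 and thus unlike Scd2. How the counting treated any reads shared between these paralogs was not tested. Elovl6, which extends saturated chains made by Fasn, was at 67.4, 36.1 and 51.5 CPM, 1.87-fold lower at P8 than at P6 (1.78 to 1.96). Elovl5, the elongase of polyunsaturated chains, was at 8.36, 4.30 and 8.29 CPM, likewise lowest at P8. Fads1 and Fads2 are the desaturases of polyunsaturated fatty acids and are neighbours on chromosome 19. Fads1 was at 42.9, 31.4 and 43.7 CPM and Fads2 at 16.6, 10.1 and 9.67 CPM, so P11 did not differ beyond counting error from P6 for Fads1 and from P8 for Fads2. Acsl3, which activates long-chain fatty acids with coenzyme A, was at 63.7, 52.7 and 55.5 CPM. It overlaps Utp14b on the same strand by 13475 bases, so its UMIs are uncertain too, with Utp14b itself at 2.76 CPM or less.

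The ratios moved with gene span, the distance from the first to the last annotated base. For all genes, the P8 to P6 comparison had a median log2 ratio that went from 0.27 in the quintile with the shortest spans (median 4.82 kb) to -0.73 in the quintile with the longest (median 163 kb). Acaca spans 272 kb and Elovl6 106 kb, and both lie in the longest quintile. Divided by the median ratio of its quintile, Acaca was 1.36-fold lower and Elovl6 1.12-fold lower at P8 than at P6, both under the limit, and the higher level of Idi1, with a span of 6.95 kb, was also under it at 1.28. Scd2, with 13.2 kb, lies in a quintile whose median was 0.05, and it was still counted as lower. Whether intron reads were counted is not given in the sources used here, and their part was not tested. The fatty acid sum centred in this way had a P8 to P6 ratio of 0.668 and the sterol sum 0.921.

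**Figure D4:**
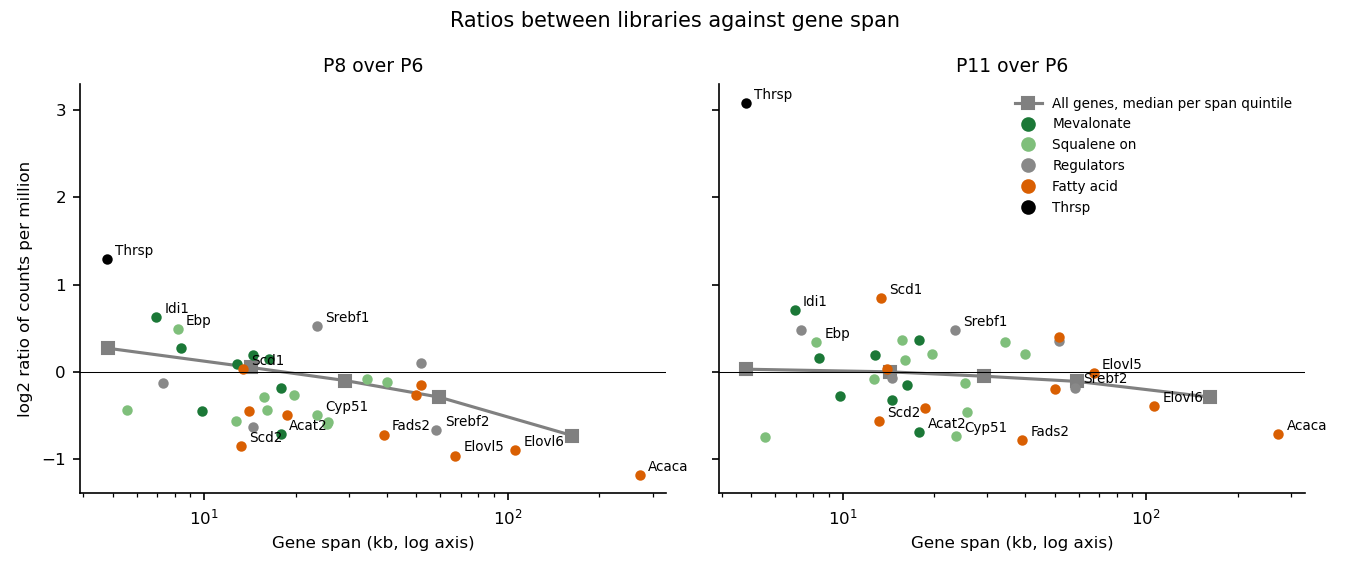
log2 ratio of CPM against gene span in kilobases (log axis) for the 35 genes, coloured by role, with grey squares for the median of all genes tested in each quintile of span. In the P8 over P6 panel the grey line descends from 0.27 to -0.73, with Acaca near its lower end and Scd2 well below it.

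Thrsp differed more between libraries than any of the other 34 genes. Its level was 43.0 CPM (41.6 to 44.5) in the P6 library, 106 (103 to 108) in P8 and 364 (360.4 to 368) in P11, from 3542, 6593 and 37559 UMIs. The ratio was 2.45 from P6 to P8 (2.35 to 2.55), 3.45 from P8 to P11 (3.36 to 3.54) and 8.46 from P6 to P11 (8.17 to 8.76). Thrsp was thus higher in each later library, including at P8, where 8 of the 10 fatty acid enzymes had their lowest level. So did 44.9% of all features that reached 20 CPM at some age, and under TMM scaling these were 6 of 10 and 29.3%. Over the alternatives the P11 to P6 ratio of Thrsp lay between 8.30 and 9.71. Of 7161 genes tested, 8 had a higher ratio of P11 to P6. The gene lies at chr7:97412938-97417730 on the minus strand of GRCm38, spans 4.79 kb and overlaps no other counted gene. The Müller glia list was also highest at P11 (206, 200 and 296 CPM, most of it Glul), as was the median share of mitochondrial UMIs (3.13%, 3.32% and 4.56%); the part of the Müller list was not tested, and in cells with at most 5% mitochondrial UMIs Thrsp kept its call in each comparison.

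To compare cells at equal depth, each was thinned to 3000 UMIs, which left 6768, 3056 and 4667 cells. A Thrsp UMI was then found in 11.0% (10.3 to 11.8), 22.7% (21.2 to 24.2) and 56.9% (55.5 to 58.3) of horizontal cells, with exact binomial intervals. Without thinning the shares were 30.9%, 65.9% and 91.8%, at the unequal depths given above. Barcodes that passed the quality limits but held no UMI of Lhx1, Onecut1 or Onecut2 served as a comparison. They held a mixture, with summed rod markers at 1283, 6873 and 4572 CPM, bipolar markers at 1475, 1498 and 2882 CPM and horizontal cell markers at 2299, 1830 and 1747 CPM, so RNA of horizontal cells was among their counts. In them, thinned alike, Thrsp was found in 0 of 58 at P6, which allows a share of up to 5.17%, in 2 of 34 at P8 (5.88%, 0.72 to 19.7) and in 5 of 62 at P11 (8.06%, 2.67 to 17.8). The limit for 0 of 58 is that of 3 counts. Before thinning those barcodes had median depths of 2314, 3018 and 3463 UMIs. The Thrsp share of horizontal cells was above that of these barcodes at each age, and the gap was widest at P11.

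**Figure D5:**
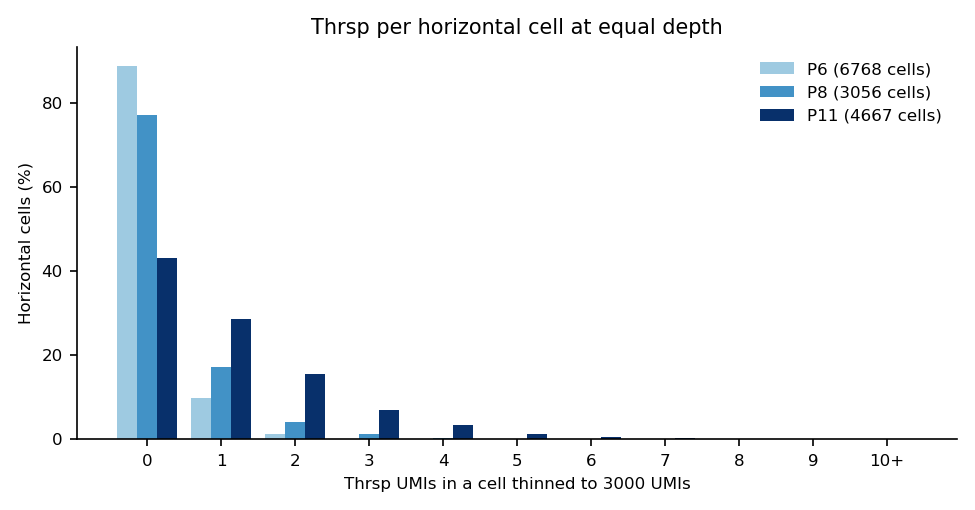
Share of horizontal cells (%) by the number of Thrsp UMIs in a cell after thinning to 3000 UMIs, for 6768 P6, 3056 P8 and 4667 P11 cells. Cells without a Thrsp UMI make up 89%, 77.3% and 43.1% of the 3 libraries in that order, and the bars for 2 or more UMIs are tallest at P11.

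The higher Thrsp level at P11 was spread over many cells. At 3000 UMIs, 28.6% of P11 cells held 1 Thrsp UMI, 15.6% held 2 and 6.99% held 3, whereas at P6 these shares were 9.77%, 1.11% and 0.118%. The variance over the mean of Thrsp counts was 1.14, 1.36 and 1.65, beside medians of 1.01, 1.03 and 1.06 for genes of like mean, where 1 is the value of pure counting noise. Of the sterol enzymes, Hmgcs1 and Fdps lay between 1.03 and 1.10 in each library, above 67.2% to 94.5% of genes of like mean. Other sterol enzymes differed from these. Ggps1 was at 1.02, 0.97 and 0.97, above 59.5%, 6.03% and 3.31% of genes of like mean. Ebp was at 1.02, 0.96 and 1.05, above 68.1%, 2.14% and 93.9%. No reading is therefore drawn for the sterol enzymes as a group. Scd2 was found in 75.1%, 60.3% and 65.3% of horizontal cells at 3000 UMIs. In barcodes without the transcription factors Scd2 was found in 55.2%, 17.6% and 30.6%. Srebf1 was found in 11.7%, 17.6% and 16.2% of horizontal cells and in 5.17%, 2.94% and 3.23% of those barcodes. For Acaca the share was 24.8%, 12% and 16.9% of horizontal cells and 43.1%, 11.8% and 17.7% of those barcodes. The Acaca share of horizontal cells therefore did not exceed that of the other barcodes beyond counting error in any library. At P6 it was the lower one, with intervals of 23.8 to 25.8 and 30.2 to 56.8. In those barcodes, too, the Acaca and Scd2 shares were highest at P6 and lowest at P8. The comparison does not separate free RNA, RNA of horizontal cells and the own expression of other retinal cells in those barcodes.

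Across cells the correlations between the branch sums were low, at counts of a few UMIs per cell. In cells thinned to 10000 UMIs (4492, 2857 and 4443 cells), the sterol sum had a median of 6 UMIs at each age, and the fatty acid sum had medians of 9, 5 and 7. Pearson's r between these sums was 0.18, 0.22 and 0.20, and between the sterol sum and Thrsp 0.04, 0.08 and 0.08. Between the fatty acid sum and Thrsp it was 0.05, 0.07 and 0.05. Pairs of sterol enzymes had a median r of 0.01 in each library. The cells of a library share its reagents and counts of a few UMIs. Counting noise at such counts lowers r, so these values describe the sparse data. They support no relation and do not show that the branches vary apart.

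Other genes of lipid handling were taken from lists by textbook role. In the list of sterol uptake, export and remaining synthesis, 12 of 18 genes reached 20 CPM, of which 0 were higher and 2 lower at P11 than at P6, against 7.35% and 12.3% of all genes tested and so near the background. Both are receptors of the lipoprotein receptor family. Vldlr was at 269, 173 and 105 CPM, 2.55-fold lower at P11 (2.49 to 2.61), and Lrp8 was at 82.0, 43.6 and 37.4 CPM, 2.19-fold lower (2.11 to 2.28). In the list of further fatty acid and glyceride synthesis, 17 of 24 reached 20 CPM, with 2 higher and 1 lower, again near the background. Me1, the malic enzyme that supplies NADPH for fatty acid synthesis, was at 42.5, 50.8 and 84.9 CPM. Mid1ip1, the paralog and known partner of Thrsp, was at 32.3, 35.8 and 57.0 CPM, 1.76-fold higher at P11 (1.68 to 1.85). Both had the same order of libraries as Thrsp, with smaller ratios. Hsd17b12, a reductase of chain elongation, was at 224, 130 and 126 CPM.

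Among genes of fatty acid oxidation, 7 of 14 reached 20 CPM, and 4 of these were higher at P11 than at P6 and none lower, against 7.35% and 12.3% of all genes. Cpt2, the carnitine palmitoyltransferase of the inner mitochondrial membrane and 1 of the 4, passed the minimum through P11 alone, at 14.2, 16.0 and 22.7 CPM. The other genes among the 4 reached 20 CPM at each age. As the lists were chosen with earlier results of these data known, the count was not taken as support for the list. Hadhb, a subunit of the mitochondrial trifunctional protein, was at 29.8, 38.1 and 53.3 CPM. Acadl, the long-chain acyl-CoA dehydrogenase, was at 37.7, 72.6 and 66.6 CPM, 1.77-fold higher at P11 than at P6 (1.69 to 1.84). Acadm, a medium-chain dehydrogenase, was 1.60-fold higher, and was named, like Cpt2, after its values were seen. Over all genes of each list, whatever their level, the median log2 ratio of P11 over P6 was 0.22 for oxidation, -0.29 for the fatty acid synthesis enzymes and 0.14 for the sterol enzymes.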

How the data were processed

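Per the submitters' processing notes, the deposited raw UMI counts for 3 matrices came from Cell Ranger 7.1.0 and the build mm10. Not given in the sources used here are the annotation release, how introns were handled, and any filter on barcodes. The genes and lists were chosen with earlier results of these data known. Gene positions came from GENCODE vM21, in which 32235 of 32285 features and all 35 genes had a match.

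Raw counts of the deposited matrices were summed over horizontal cells, defined in the text, and divided by their summed UMIs to give CPM. Intervals are at 95% for counting error only (Poisson for levels, conditional binomial for ratios, Clopper-Pearson for shares, all exact). A count of 0 entered with a floor of 3 counts. The ratio computation was tested on simulated counts. No doublets were removed in the main analysis. Scrublet in scanpy 1.11.5 marked 0%, 0.274% and 0.0607% of cells by its own threshold, too few to be usable, so an alternative removed the highest scores at 0.8% per 1000 cells (533, 154 and 240 horizontal cells). Other alternatives were TMM scaling (edgeR 4.0.16), median-of-ratios scaling, stricter cell filters, depth matching and thinning, and, chosen after seeing the data, division by the median ratio of a gene span quintile, sums without Scd2 or Acaca, thinning to 10000 UMIs and a split of cells by Mgarp. Named genes were all 35, the 2 farthest above and the 2 farthest below 1.5-fold in P11 over P6 in each other list, and a few more for their role, among them Mid1ip1. Some genes that this rule names are not reported here. Some promoter stretches were left out because an annotated exon overlaps them.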

Additional observations from a re-analysis of the deposited data

How the results depend on the processing

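No paired analysis was possible because each age has 1 library. No ratio changed between a call in one direction and a call in the other under any alternative tried. Values are given for P8 over P6, then P11 over P8, then P11 over P6. Under TMM scaling the sterol sum had ratios of 1.17, 0.995 and 1.17, the fatty acid sum 0.729, 1.19 and 0.869, and Thrsp 2.97, 3.27 and 9.71, with 4, 1 and 5 genes higher and 2, 1 and 0 lower. Under median-of-ratios scaling the sterol sum had 1.07, 0.998 and 1.07, the fatty acid sum 0.665, 1.2 and 0.795, and Thrsp 2.71, 3.28 and 8.88. There 4 genes were higher and 3 lower at P8 than at P6, and 1 was higher and 1 lower at P11 than at P8. As a mean over cells, the fatty acid ratios were 0.642, 1.22 and 0.784. With cells thinned to 3000 UMIs, the sterol sum had 0.953 and 1.07 in the first pair of comparisons, the fatty acid sum 0.644, 1.21 and 0.778, Thrsp 3.57 for P11 over P8, and 4 genes were higher at P8 than at P6. In cells with 10000 to 20000 UMIs, the sterol ratios were 0.998, 1.01 and 1.01, the fatty acid ratios 0.589 for P8 over P6 and 0.742 for P11 over P6, and 1 gene was higher at P11 than at P6. Scrublet removal gave fatty acid ratios of 0.61 for P8 over P6 and 0.767 for P11 over P6. Divided by the median of the span quintile, the sterol sum had 0.921 for P8 over P6 and 1.12 for P11 over P8, the fatty acid sum 0.668, 1.22 and 0.795, and Thrsp 2.03 and 4.13 in the first pair. In that setting 3 genes were lower at P8 than at P6 and 5 higher at P11 than at P8. Without Scd2 the fatty acid ratios were 0.664, 1.3 and 0.865, and without Scd2 and Acaca 0.733, 1.29 and 0.943. With a minimum of 100 CPM, 1 gene was higher in each comparison, and 2 were lower at P8 than at P6 and 1 at P11 than at P6. With no minimum, 9 genes were lower at P8 than at P6, 5 were higher at P11 than at P8, and 5 were lower at P11 than at P6. At 2-fold, 1 gene was higher in each comparison, and 1 was lower at P8 than at P6 and 0 at P11 than at P6. Fewer genes pass the stricter minimum and fold by construction; for the other differences the cause was not tested. P6 cells had the lowest median depth, and at 3000 UMIs most enzymes gave less than 1 UMI per cell. Differences between single cells could be missed for them at this depth and were not tested.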

Other observations

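Genes near Thrsp on chromosome 7 were picked for their position and differed in their order of libraries. Ndufc2, a respiratory chain subunit gene next to Thrsp, was at 459, 815 and 691 CPM in the P6, P8 and P11 libraries, and Aamdc was at 139.9, 277 and 258 CPM. Both were highest at P8, whereas Thrsp was highest at P11. Ints4, a subunit gene of the Integrator complex, was at 33.1, 33.0 and 41.4 CPM, and Kctd14, the nearest gene on the other side, was at 0.0972 CPM or less in each library. Gab2, a signalling adaptor gene farther off, was at 234, 72.3 and 170.6 CPM, 3.23-fold lower at P8 than at P6, and its P11 to P8 ratio was 2.36. It spans 227 kb and lies in the longest span quintile. The median log2 ratio of all genes there was -0.73 for P8 over P6 and 0.44 for P11 over P8. The part of span in the Gab2 ratios was not tested. Usp35, Kctd21 and Alg8, which also lie near, stayed under 20 CPM.

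The mitochondrial protein gene Mgarp, picked after its values were seen, was detected in 2051 of the 6768 P6 cells thinned to 3000 UMIs and went from 159.7 CPM at P6 to 2641 and 5433 in the later libraries. At P6, Thrsp was at 44.5 CPM (39.4 to 50.1) in cells with an Mgarp UMI and at 40.2 (37.0 to 43.7) in the 4717 cells without. These intervals overlap. The fatty acid sum was 930.4 CPM (907 to 955) in cells with Mgarp and 972 (956 to 989) in cells without. These intervals nearly touch and allow for counting error only. In P6 cells thinned to 10000 UMIs, the variance over the mean of the fatty acid sum was 2.05, above that of pure counting noise. The intervals are therefore too narrow, and no difference between the cells is drawn from them. The sterol sum was 644 (624 to 665) CPM in cells with Mgarp and 653 (639 to 666) in cells without.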
